A study of Mus musculus with 4 samples.

Results

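The genes described here are 8 genes of sterol sensing and sterol trafficking, namely Insig1, Scap, Srebf1, Srebf2, Mbtps1, Stard4, Npc1 and Npc2, among 11258 genes measured in cultured mouse sensory neurons. They were picked by name, as the transcripts whose mouse symbol, given in the descriptions of the deposited table, is one of the 8. That choice took 9 of 14236 listed transcripts, and 1 more, another Stard4 transcript without a description, was added through its RefSeq accession. The RNA came from dissociated dorsal root ganglia (DRG, the clusters of sensory neuron cell bodies beside the spinal cord) of mouse embryos at day 13.5. All cultures were grown on laminin with 50 ng/ml nerve growth factor and with 1 μM fluorodeoxyuridine and 1 μM uridine, a pair of agents used to suppress dividing cells. They were transduced with lentivirus on day 2 in vitro and replated on day 5 in vitro. The PROM1 cultures (2 libraries) received virus carrying human PROM1, a cholesterol-binding glycoprotein of membrane protrusions also called CD133. The control cultures (2 libraries) received the control pLKO virus, so every culture had been transduced. The mouse strain, the promoter in front of PROM1 and the share of transduced cells are not given in the labels, and PROM1 itself was not analysed here.

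Animal cells adjust their cholesterol through a sensor in the membrane of the endoplasmic reticulum. SCAP escorts the membrane-bound precursors of the transcription factors SREBP-1 and SREBP-2 to the Golgi, where site-1 and site-2 proteases cut them so that the active part enters the nucleus, and INSIG proteins hold SCAP back when sterol is plentiful. Cholesterol taken up in lipoproteins leaves the lysosome through NPC2 and NPC1, and soluble carriers such as STARD4 move it between membranes; loss of NPC1 or NPC2 causes a neurodegenerative lysosomal storage disease. Insig1 and Stard4 are themselves known targets of SREBP in mammalian cells.

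Levels are given in FPKM, the fragments of a transcript scaled by its length and by the mapped total, as the authors deposited them for each library, and a gene's level is the sum over its listed transcripts. Because the files hold no read counts, the sequencing depth behind each value is unknown. Changes are PROM1 minus control on the log2(FPKM + 1) scale, on which low genes appear to change less than they do. They were tested with limma over 10108 genes whose mean FPKM was 1 or more. Library FPKM values summed to between 357804.6 and 385962.8. The neuronal identity of the cultures was visible in all 4 libraries, since the 10 markers of sensory neurons summed to 2296 and 2783 FPKM in PROM1 libraries and to 2391 and 2626 FPKM in control libraries. Glial markers, 7 of 13 measured, summed to 54.0 and 58.9 FPKM in PROM1 libraries and to 85.6 and 71.4 FPKM in control libraries. Fibroblast markers, 5 of 10 measured, summed to 9.47 and 13.9 FPKM in PROM1 libraries and to 5.14 and 5.71 FPKM in control libraries. The glial transcription factor gene Sox10 lay between 0.706 and 1.75 FPKM in every library.

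Of the 8 genes, Insig1 had the largest change, and it was lower in PROM1 cultures. The log2 changes of the other 7 genes lay between -0.66 and 0.24. All 8 passed the filter on level. None of the 8 passed the limma test after Benjamini-Hochberg adjustment over all genes (adjusted p from 0.939 to 0.996). Over all genes tested, 0.0198% were called lower and 0% higher by limma, so the calls over the whole table were too few for the count of 0 among 8 to set these genes apart. At an unadjusted p under 0.05, 1 of the 8, Insig1, passed in limma, and it was lower. Of all genes tested, 4.7% passed at that threshold, 2.36% lower and 2.33% higher. For 4 genes (Insig1, Stard4, Srebf2 and Npc2) each PROM1 library was lower than each control library, where 17.5% of all genes tested did so, and for 1 gene (Scap) each was higher, where 16.5% were. The median log2 change of the 8 genes was -0.28, and that of all genes tested was -0.0286. The Stard4 total includes the added transcript that has no description. Leaving such transcripts out, an alternative chosen after seeing the data, gave Stard4 a log2 change of 0.203 with overlapping groups. The count of 4 genes and the median of the 8 therefore rest partly on that transcript.

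**Figure D1:**
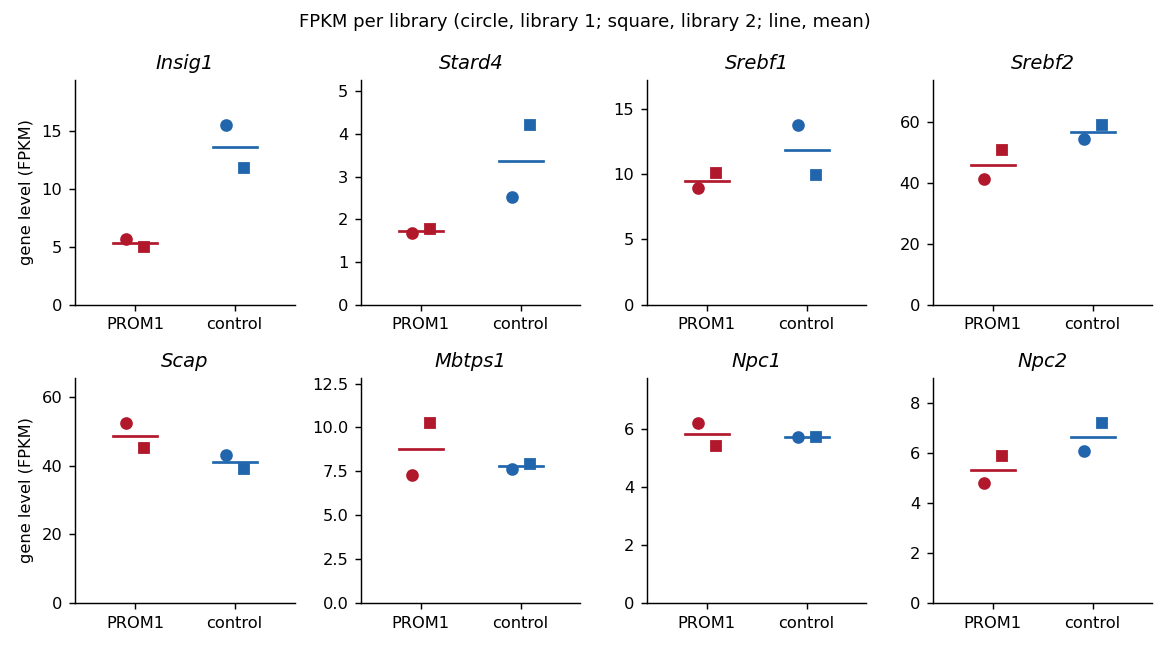
FPKM of each of the 8 genes in every library, with PROM1 cultures in red on the left of each panel and control cultures in blue on the right (circle, library 1; square, library 2; line, group mean; the vertical axis starts at 0 and differs between panels). Insig1 lies at 5.69 and 4.96 FPKM in PROM1 cultures and at 15.6 and 11.8 FPKM in control cultures, while the points of Srebf1, Mbtps1 and Npc1 overlap between the groups.

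Insig1 encodes the endoplasmic reticulum protein that retains SCAP and also leads HMG-CoA reductase, the rate-limiting enzyme of cholesterol synthesis, to degradation. It was at 5.69 and 4.96 FPKM in PROM1 libraries 1 and 2 and at 15.6 and 11.8 FPKM in control libraries 1 and 2. Both PROM1 libraries were thus below both control libraries, and the libraries of each group lay closer to one another than the groups did. The group means were 5.32 ± 0.514 FPKM in PROM1 cultures and 13.7 ± 2.67 FPKM in control cultures (SD, n = 2 each). The log2 change was -1.20 ± 0.25 (SE), or 2.30-fold lower on that scale, with a 95% interval from -1.83 to -0.58. Its unadjusted p of 0.00378 (limma) was among the 32 lowest of 10108 genes, but adjusted over all of them it was 0.939, so Insig1 was not called. A change of at least this size in either direction was found in 269 genes. In the authors' deposited table, the group values of Insig1 were 7.37 FPKM for PROM1 and 17.7 FPKM for control. Each lay above both library values of its group, so the group values are not means of the library values. The authors' own comparison gave p = 0.00045 and q = 0.207, and Insig1 was not marked significant there. No transcript of the 8 genes was marked in the authors' deposited table, in which 0.204% of transcripts were.

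The position of Insig1 among the 8 genes differed between the groups. Ranked from the highest level, it stood at places 6 and 7 of 8 in PROM1 libraries 1 and 2, beside the lysosomal genes Npc1 and Npc2, and at place 3 in both control libraries, after Srebf2 and Scap. The ratio of Insig1 to Scap, its binding partner, does not depend on the scaling of a library. This ratio of FPKM values was 0.108 and 0.110 in PROM1 libraries and 0.360 and 0.300 in control libraries, a comparison chosen after the values were seen and not tested. The glial markers had lower sums in PROM1 libraries too, as given above, most of it in Pmp22, a myelin protein gene, at 18.8 and 20.7 FPKM in PROM1 libraries and 44.9 and 28.8 FPKM in control libraries. Without Pmp22 the glial sum was 35.2 and 38.1 FPKM in PROM1 libraries and 40.7 and 42.7 FPKM in control libraries, and 5 of the 7 glial markers overlapped between the groups. The part of these markers in the level of Insig1 was not tested. In RNA from whole cultures, fewer cells of a type and less RNA per cell cannot be told apart.

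The genes with the profile nearest to Insig1, by the root mean square distance of log2(FPKM + 1) centred on each gene's mean over the 4 libraries, were Nt5dc2 (distance 0.0963), Sqle (0.10) and Klc3 (0.133). Nt5dc2, of the NT5DC family of haloacid dehalogenase-like proteins, had 11.4 and 12.3 FPKM in PROM1 libraries and 32.2 and 25.9 FPKM in control libraries. Sqle, the squalene epoxidase of cholesterol synthesis, had 53.5 and 51.1 FPKM in PROM1 libraries and 123.6 and 92.6 FPKM in control libraries. Klc3, a kinesin light chain gene, was far lower, at 0.473 and 0.396 FPKM in PROM1 libraries and 2.05 and 1.55 FPKM in control libraries. At these levels the 1 added to each FPKM shrinks the change. The small distance of Klc3 therefore does not mean an equal fold change in FPKM. With 4 libraries, the distance describes these values alone.

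The RefSeq promoter windows, from 250 bases before to 50 bases after each start site in GRCm38.p6, show which sterol-related letters stand near the start of the genes of the sensor. Windows were searched for 6 of the 8 genes, 9 windows in all, and Stard4 and Npc1 were left out of the search. Windows of Insig1, Srebf1 and Srebf2 are printed because these genes are known to be regulated by the SREBP proteins they control or encode. Capitals mark TCACNCNA, a pattern that covers several known sterol regulatory elements, and CACGTG, an E-box that SREBP proteins also bind. For Srebf1, only the window that holds TCACNCNA is printed. Each sequence is given in the direction of its gene.
Insig1, chr5:28071162-28071461, plus strand: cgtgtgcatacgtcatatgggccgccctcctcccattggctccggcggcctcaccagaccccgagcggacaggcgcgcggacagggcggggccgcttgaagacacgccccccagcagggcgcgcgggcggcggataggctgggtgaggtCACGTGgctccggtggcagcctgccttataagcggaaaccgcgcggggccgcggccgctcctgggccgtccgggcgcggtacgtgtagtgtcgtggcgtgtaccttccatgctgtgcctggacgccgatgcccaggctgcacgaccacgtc
Srebf2, chr15:82147019-82147318, plus strand: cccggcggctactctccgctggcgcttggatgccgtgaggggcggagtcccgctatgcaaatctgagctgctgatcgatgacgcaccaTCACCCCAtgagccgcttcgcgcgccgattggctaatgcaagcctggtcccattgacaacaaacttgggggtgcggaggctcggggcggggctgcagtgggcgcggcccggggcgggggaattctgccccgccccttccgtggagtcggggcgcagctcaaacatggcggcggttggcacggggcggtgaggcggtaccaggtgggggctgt
Srebf1, chr11:60210422-60210721, minus strand: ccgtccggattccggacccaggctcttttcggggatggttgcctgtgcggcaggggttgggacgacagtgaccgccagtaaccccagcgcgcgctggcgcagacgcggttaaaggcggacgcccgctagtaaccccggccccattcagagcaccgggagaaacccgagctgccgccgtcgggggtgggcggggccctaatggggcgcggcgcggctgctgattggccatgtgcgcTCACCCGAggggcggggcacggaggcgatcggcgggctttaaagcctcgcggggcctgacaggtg

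On either strand, TCACNCNA was found in 2 of the 9 windows, and in 11.0% of all 32851 promoter windows. In Srebf2 it read TCACCCCA and began at position -162 from the start site. In the Srebf1 window printed, which is 1 of 3 for that gene and was chosen because it holds this pattern, it read TCACCCGA and began at position -15. The narrower TCACNCCAC, which is contained in the first pattern, was in none of the 9 windows and in 1.24% of all windows. CACGTG, searched after the sequences had been seen, was in the Insig1 window, beginning at -101, and in both overlapping Scap windows, against 7.15% of all windows. CCAAT, the core of the NF-Y site, was in 5 of the 9 windows (37.4% of all), and GGGCGG, a core of Sp1 sites, in 8 (35.7% of all). These are matches of letters in windows of fixed length, and they do not show binding.

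Scap and the SREBP genes, which make the parts of the complex that INSIG1 retains, differed less between the groups. Scap, the sterol-sensing escort, had 52.5 and 45.1 FPKM in PROM1 libraries and 43.2 and 39.2 FPKM in control libraries. Alone among the 8 genes, it was higher in each PROM1 library than in each control library, with a log2 change of 0.24 ± 0.19 (SE), a 95% interval from -0.25 to 0.72 and an adjusted p of 0.941 (limma). Srebf2, whose product SREBP-2 mainly drives genes of cholesterol synthesis and uptake, had 41.2 and 50.8 FPKM in PROM1 libraries and 54.4 and 59.2 FPKM in control libraries. Its groups did not overlap, but the gap between PROM1 library 2 and control library 1 was narrower than that between the PROM1 libraries. The log2 change of Srebf2 was -0.30 ± 0.20 (SE), with a 95% interval from -0.81 to 0.20 and an adjusted p of 0.939 (limma). Without PROM1 library 1 these changes were 0.13 for Scap and -0.16 for Srebf2. Scap and Srebf2 were the most abundant of the 8 genes in every library. Scap was above Srebf2 in PROM1 library 1 and below it in the other 3 libraries. Srebf2 stood at 0.785 and 1.13 times the FPKM of Scap in PROM1 libraries and at 1.26 and 1.51 times in control libraries.

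Srebf1, whose products mainly drive fatty acid synthesis, had 8.91 and 10.1 FPKM in PROM1 libraries and 13.8 and 9.97 FPKM in control libraries. The groups overlapped, because control library 2 was level with PROM1 library 2. The log2 change was -0.28 ± 0.25 (SE), with a 95% interval from -0.91 to 0.35 and an adjusted p of 0.941 (limma), and it was -0.067 without control library 1 and -0.50 without control library 2. The total concealed a difference between the transcripts listed for the gene. NM_001313979 was at 7.6e-16 and 9.93 FPKM in PROM1 libraries and at 13.7 and 9.82 FPKM in control libraries. NM_011480 was at 8.91 and 0.127 FPKM in PROM1 libraries and at 0.111 and 0.142 FPKM in control libraries. PROM1 library 1 therefore held practically all of its Srebf1 in the transcript that made up 1.26%, 0.801% and 1.43% of the gene in PROM1 library 2 and control libraries 1 and 2. In the authors' deposited table, this appears as 3.07 FPKM for PROM1 and 9.82 FPKM for control in NM_001313979 (q = 0.865) and as 4.24 FPKM for PROM1 and 0.0719 FPKM for control in NM_011480 (q = 0.879). In the fit per transcript their log2 changes were -1.93 ± 1.26 and 1.57 ± 1.20 (SE), both at an adjusted p of 0.923 (limma). The exchange was seen in 1 of the 2 PROM1 libraries, and Cufflinks divides the reads of a gene among its transcripts by estimation.

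**Figure D2:**
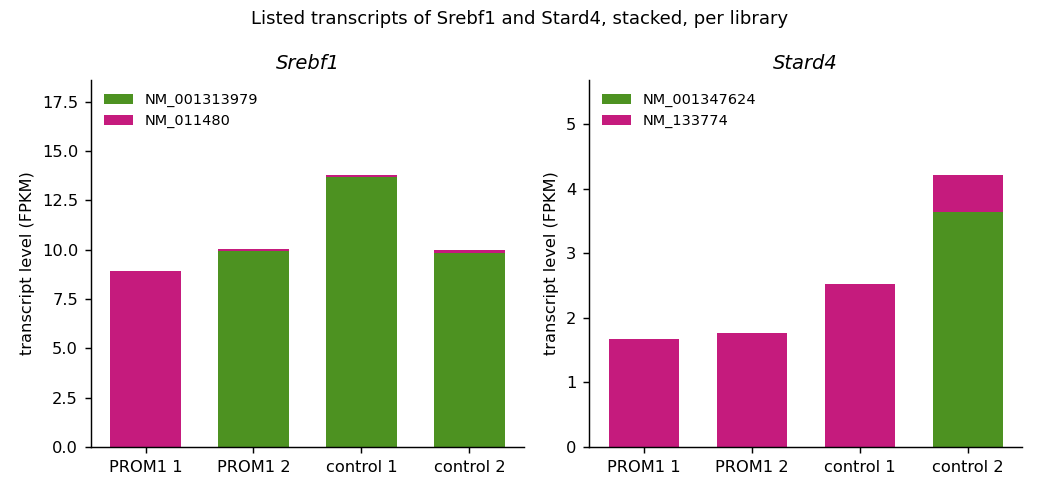
FPKM of the transcripts listed for Srebf1 (left) and Stard4 (right), stacked for each library, with PROM1 libraries left of control libraries; each colour is 1 RefSeq transcript. PROM1 library 1 stands apart for Srebf1, with 8.91 FPKM in NM_011480, and control library 2 stands apart for Stard4, with 3.64 FPKM in NM_001347624.

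Mbtps1 encodes site-1 protease, which makes the first cut of the SREBP precursors and also cuts other membrane-bound factors such as ATF6. It had 7.30 and 10.2 FPKM in PROM1 libraries and 7.66 and 7.92 FPKM in control libraries. The PROM1 libraries lay on either side of the control libraries. The log2 change was 0.14 ± 0.26 (SE), with a 95% interval from -0.50 to 0.78 and an adjusted p of 0.975 (limma), which became -0.0821 when PROM1 library 2 was left out and 0.36 when PROM1 library 1 was. The site-2 protease gene Mbtps2, which makes the second cut, fell under the filter on level, with 0.545 and 0.368 FPKM in PROM1 libraries and 0.593 and 0.530 FPKM in control libraries. The second INSIG gene, Insig2, was not analysed here.

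Stard4, a soluble carrier that moves sterol between membranes, was the lowest of the 8 genes in every library. Over both listed transcripts it had 1.67 and 1.77 FPKM in PROM1 libraries and 2.52 and 4.22 FPKM in control libraries. Both PROM1 libraries were below both control libraries, and the control libraries lay further apart than the PROM1 libraries. The log2 change was -0.66 ± 0.33 (SE), with a 95% interval from -1.49 to 0.18 and an adjusted p of 0.939 (limma), and it was -0.37 without control library 2. The direction rested on the transcript that was added by its accession. NM_001347624 was at 3.64 FPKM in control library 2, where it made up 86.2% of the gene, and at under 0.0001 FPKM in control library 1 and in both PROM1 libraries. NM_133774, the transcript with a description, had 1.67 and 1.77 FPKM in PROM1 libraries and 2.52 and 0.582 FPKM in control libraries, so its groups overlapped. For NM_133774 alone, the log2 change was 0.20 ± 0.55 (SE), with a 95% interval from -1.34 to 1.75 and an adjusted p of 0.985 in the fit per transcript (limma). Thus 2 of the 8 genes had several listed transcripts, and in both of them 1 library differed from the other 3 in which transcript held most of the FPKM.

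NPC1 and NPC2 act together on cholesterol in the lysosome. Npc1 encodes a membrane protein with a sterol-sensing domain that takes cholesterol out of the lysosome. It had 6.20 and 5.42 FPKM in PROM1 libraries and 5.73 and 5.72 FPKM in control libraries, with the control libraries between the PROM1 libraries. Its log2 change was 0.0147 ± 0.24 (SE), with a 95% interval from -0.58 to 0.61 and an adjusted p of 0.996 (limma), and it turned to -0.0681 without PROM1 library 1. Npc2 encodes the soluble protein of the lysosomal lumen that hands cholesterol to NPC1. It had 4.80 and 5.88 FPKM in PROM1 libraries and 6.10 and 7.20 FPKM in control libraries. The groups of Npc2 did not overlap, though PROM1 library 2 and control library 1 lay close together. The log2 change of Npc2 was -0.27 ± 0.25 (SE), with a 95% interval from -0.90 to 0.36 and an adjusted p of 0.941 (limma). It was -0.15 without PROM1 library 1 and -0.17 without control library 2. The intervals of both genes include changes of more than 1.5-fold, so with 2 libraries in each group they do not show that the levels were alike.

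**Figure D3:**
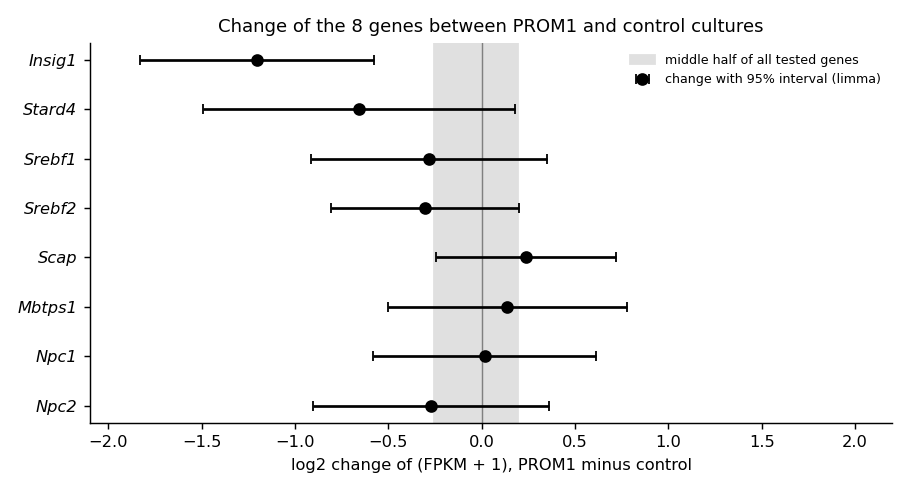
Log2 change of (FPKM + 1), PROM1 minus control, for each of the 8 genes, as points with 95% intervals from limma; the grey band spans the middle 50% of all tested genes, from -0.25 to 0.20. The interval of Insig1, from -1.83 to -0.58, lies wholly below 0, and those of the other 7 genes cross 0.

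FPKM is scaled by transcript length, so the order of levels among the 8 genes was read from the library values. In PROM1 cultures the order was Scap (48.8 ± 5.23 FPKM), Srebf2 (46.0 ± 6.78), Srebf1 (9.48 ± 0.810), Mbtps1 (8.78 ± 2.08), Npc1 (5.81 ± 0.552), Npc2 (5.34 ± 0.767), Insig1 (5.32 ± 0.514) and Stard4 (1.72 ± 0.0683; SD, n = 2 each). The ranges of Scap and Srebf2, of Srebf1 and Mbtps1, and of Npc1, Npc2 and Insig1 overlapped there. In control cultures the order was Srebf2 (56.8 ± 3.40 FPKM), Scap (41.2 ± 2.82), Insig1 (13.7 ± 2.67), Srebf1 (11.9 ± 2.71), Mbtps1 (7.79 ± 0.189), Npc2 (6.65 ± 0.785), Npc1 (5.73 ± 0.00733) and Stard4 (3.37 ± 1.20; SD, n = 2 each). Here the ranges of Insig1 and Srebf1 overlapped. The median level of all tested genes was 6.93 FPKM, which lies between Mbtps1 and the lysosomal pair. The authors' group values gave the same order for control cultures but another for PROM1 cultures. There Mbtps1, at 10.8 FPKM, stood above Srebf1, whose transcripts had 3.07 and 4.24 FPKM.

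Other genes of the same route were read from lists of named genes. None of the genes on the lists counted here was called by limma over all genes. Each list's count at an unadjusted p under 0.05 is set against 4.7% of all genes tested. Its count of lower means is set against 53.5% of all genes tested, and its count of genes lower in each PROM1 library than in each control library against 17.5%. The machinery of SREBP processing had 5 tested genes, all of them among the 8, with 3 lower and 2 higher means and a median of -0.28, and 1 of them, Insig1, passed at an unadjusted p under 0.05 (limma). The COPII coat, which carries SCAP and SREBP out of the endoplasmic reticulum, had 6 higher and 4 lower means among 10 genes and a median of 0.055, and 0 of the 10 passed at an unadjusted p under 0.05 (limma). Sar1a, the GTPase that starts the coat, had 7.89 and 5.56 FPKM in PROM1 libraries and 7.92 and 12.2 FPKM in control libraries. Its PROM1 library 1 and control library 1 were nearly level. Sar1b, also on that list, had a higher mean in PROM1 cultures with overlapping groups, at 7.84 and 5.76 FPKM against 4.49 and 6.31 FPKM in control libraries. The genes for the degradation of INSIG and HMG-CoA reductase, 14 tested, had 6 higher and 8 lower means and a median of -0.0158, and 0 passed unadjusted (limma). Among them, the gene of the ubiquitin ligase RNF145, which binds INSIG proteins, had 9.18 and 13.5 FPKM in PROM1 libraries and 10.7 and 5.26 FPKM in control libraries, with overlapping groups. The 7 tested nuclear partners of SREBP had a median of 0.10, with 4 higher and 3 lower means and 0 past the unadjusted threshold (limma). The coactivator gene Crebbp had 30.2 and 28.4 FPKM in PROM1 libraries and 22.5 and 25.2 FPKM in control libraries. Of 5 other substrates of site-1 protease, 2 had higher and 3 lower means, with a median of -0.0271 and 0 past the unadjusted threshold (limma). In the COPII list, 2 of 10 genes were lower in each PROM1 library than in each control library and 0 were higher. For the degradation genes these counts were 3 and 2 of 14, and for the nuclear partners 0 and 2 of 7. For SREBP processing they were 2 and 1 of 5, and for the other site-1 protease substrates 1 and 0 of 5.

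Uptake and trafficking of sterol gave larger single values. Scarb1, a receptor for high-density lipoprotein, had 19.7 and 12.9 FPKM in PROM1 libraries and 9.60 and 9.04 FPKM in control libraries, a log2 change of 0.72 ± 0.27 (SE, limma adjusted p = 0.939). Lrp8, of the same receptor list, was listed only as a non-coding transcript, so its value does not describe the receptor.

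In the list of lysosomal sterol release, 7 of 9 tested genes had lower means, Npc2 among them, and 5 had groups that did not overlap in that direction, beside 53.5% and 17.5% of all genes tested. The median was -0.27, and 1 gene passed at an unadjusted p under 0.05 (limma). This was Tmem97, a sterol-regulated membrane protein that binds NPC1, with 8.12 and 3.39 FPKM in PROM1 libraries and 13.5 and 18.6 FPKM in control libraries. Its log2 change was -1.42 ± 0.41 (SE, limma adjusted p = 0.939). Lipa, the lysosomal acid lipase that frees cholesterol from its esters, had 7.84 and 5.86 FPKM in PROM1 libraries and 9.59 and 10.2 FPKM in control libraries. The 19 tested genes of sterol transfer outside vesicles had a median of -0.0133, with 8 higher and 11 lower means, and 1 of them, Osbpl9, passed at an unadjusted p under 0.05 (limma). Of the 19, 5 were lower in each PROM1 library than in each control library, and 4 were higher in each. Stard5, a relative of Stard4, had 1.78 and 1.70 FPKM in PROM1 libraries and 0.726 and 0.174 FPKM in control libraries, and was thus on the other side from the Stard4 total, near the filter on level. Osbpl9, an oxysterol-binding protein relative, had 18.9 and 15.9 FPKM in PROM1 libraries and 24.5 and 26.2 FPKM in control libraries, a log2 change of -0.52 ± 0.21 (SE, limma adjusted p = 0.939).

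**Figure D4:**
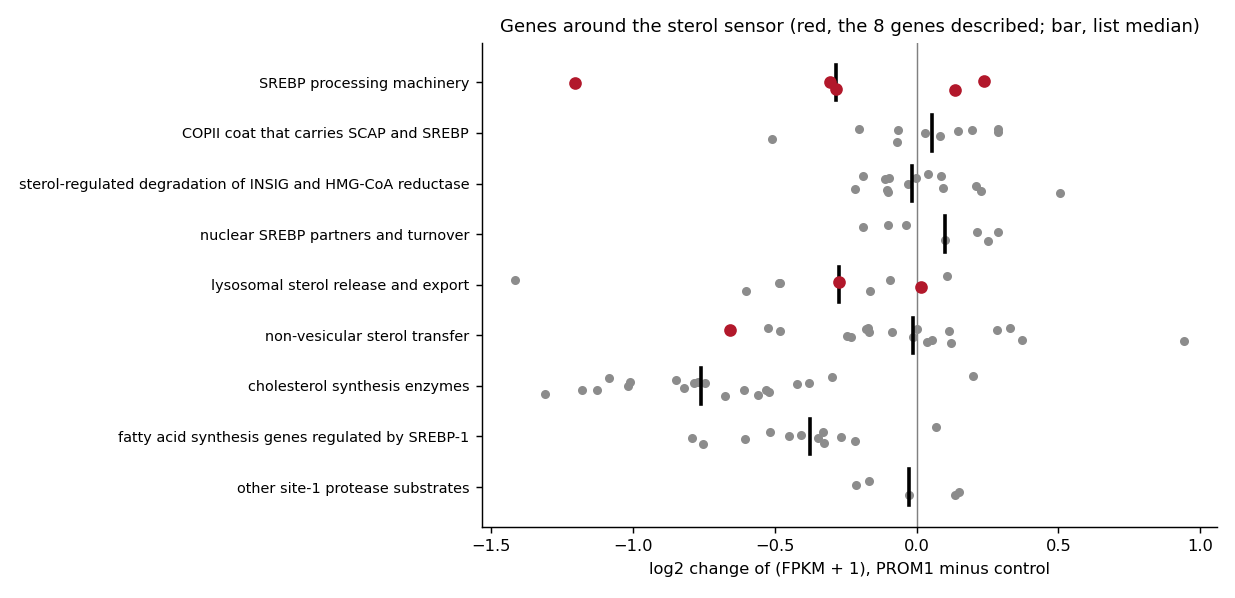
Log2 change of (FPKM + 1), PROM1 minus control, for each tested gene of 9 lists around the sterol sensor, 1 row for each list and 1 point for each gene (red, the 8 genes described; black bar, the list median; the vertical scatter within a row has no meaning). Insig1 lies near the lower end of the cholesterol synthesis enzymes, whose median is -0.76, while the medians of the COPII coat and of the degradation genes are 0.055 and -0.0158.

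The enzymes that SREBP proteins induce give the setting for these values. The 20 tested cholesterol synthesis genes had a median of -0.76, and 16 of them were lower in each PROM1 library than in each control library, as were 17.5% of all genes tested. At an unadjusted p under 0.05, 14 of the 20 passed, all of them lower (limma). The 12 fatty acid synthesis genes had a median of -0.38, 7 of them were separated in that way, and 3 passed at an unadjusted p under 0.05, all of them lower (limma). The log2 change of Insig1, at -1.20, lay beside those of Mvd (-1.18) and Nsdhl (-1.31), enzymes of the mevalonate and sterol branches, whereas Srebf2 (-0.30) and Scap (0.24) did not reach the median of the enzymes. These comparisons share the same 4 libraries, and the difference between the lists was not tested.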

How the data were processed

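RNA-seq libraries were made with a Lexogen SENSE kit from polyadenylated RNA (large RNA over 200 nt) and read as single ends of 50 nt, per the labels' protocols. CASAVA, TopHat2 and mouse build mm9 are named in the submitters' processing notes, which state neither an annotation nor a strand setting. Per the file headers, the authors deposited an FPKM per transcript and library from Cufflinks, an FPKM per group, the p-value and q-value of their comparison, a log2 ratio of the group FPKM (a second copy marks groups at 0 with a large number, so it was not used as a score), and a −log10 copy of the p-values. Replicates were called biological by the series text. Low FPKM values showed no steps of whole reads (at most 1.64% of 518 to 785 low transcripts on a shared ratio), so depth is unknown and counts were not modelled.

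Symbols came from the deposited descriptions for 13996 transcripts and from RefSeq accessions (GRCm38.p6) for 240; 39 transcripts with a missing value were left out. FPKM was summed per symbol and fitted in R 4.3.3 with limma 3.58.1, using a variance trend, on log2(FPKM + 1), calling Benjamini-Hochberg adjusted p-values under 0.05. The fit was tested on simulated data with changes larger than those of the 8 genes. That test does not show how well changes of their size are found. The smallest two-sided p of an exact permutation test of 2 libraries against 2 is 0.333, so none was run. The members and lists were chosen with earlier results of these data known. The rule named the 8 genes, every gene of SREBP processing, up to 3 others with the largest absolute change from each list, and the 3 nearest profiles to Insig1; only some are printed, and the counts of the receptor list are not reported here. Sox10, Pmp22 and Mbtps2 were named outside the rule, after their values were seen. Alternatives covered the pseudocount, level filter, trend, scaling, transcript choice, pairing and each library.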

Additional observations from a re-analysis of the deposited data

How the results depend on the processing

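No call was made on any of the 8 genes under the alternatives run, which were 14 to 16 for each gene. Insig1 stayed lower in PROM1 cultures in all 16 of its alternatives, with log2 changes from -1.39 to -1.02 and limma adjusted p-values from 0.711 to 1. The log2 changes of Srebf1 ranged from -0.50 to -0.067 and those of Srebf2 from -0.45 to -0.16. Those of Scap ranged from 0.13 to 0.34 and those of Npc2 from -0.40 to -0.15. For Srebf1 and Stard4, which have several listed transcripts, the fit per transcript was not counted among the alternatives. In that fit the Srebf1 transcripts changed in opposite directions, by -1.93 and 1.57, so its range holds for the gene total only. The direction turned for Npc1 (-0.0681 to 0.0974 without each library in turn, the lowest without PROM1 library 1), for Mbtps1 (-0.0821 to 0.356, the lowest without PROM1 library 2) and for Stard4 (0.203 when the transcripts without a description were left out, an alternative chosen after seeing the data); for Stard4 the alternative removes the transcript that holds most of control library 2. With a mean of at least 5 FPKM Stard4 was not tested. Over all genes limma called 0 higher and 2 lower. It called 1 higher with a pseudocount of 0.1, and 0 lower with mRNA accessions alone, per transcript or without small RNA records, where 493, 517 and 513 had an unadjusted p under 0.05. Without each library in turn the counts ran from 0 to 12 higher and from 1 to 5 lower. The cause was not tested. The replicate numbers of the titles are not known to pair cultures, and deviations of same-numbered libraries correlated at 0.139 across genes. With the replicate block 0 genes were higher and 2 lower, and Insig1 stayed at -1.20 with a limma adjusted p of 0.745. The precision is limited by 2 libraries in each group, with standard errors of 0.193 to 0.334 for the 8 genes.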
